A study of Mus musculus with 56 samples.

Results

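The extracellular matrix is the protein network around lung cells, and the genes described here encode its collagens, laminins and glycoproteins, the integrins through which cells hold on to it, and the proteases that cut it. They were chosen by symbol: a clone belongs to the group when its gene name begins as a collagen, laminin, integrin, Mmp, Timp, Adam, fibulin, fibrillin or Sparc gene, or is fibronectin or elastin. The rule found 64 clones for 49 genes among 7625 clones with a gene name, which stand for 5883 gene names. Of the 49 genes, 12 had several clones (27 clones) and 37 had 1 clone. Clones of a gene are numbered here by brightness, clone 1 being the brightest. Itgb1bp1 and Itgb4bp (4 clones) were caught by name only, since they encode proteins that bind an integrin tail or were named for doing so.

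The study followed acute lung injury in wild-type C57Bl/6J mice, all female and aged 7 weeks, anaesthetised with xylazine and ketamine and injected through the tail vein with 20 µl of oleic acid (OA, 1.2 µl per g body weight) or with physiological serum. A fatty acid given this way injures the lung capillaries, and no transgene or deletion is involved. RNA of whole lung, labelled with 33P, was hybridised to nylon microarrays of spotted cDNA clones. OA mice were killed after 1 h (4 mice), 1.5 h (6 mice), 3 h (7 mice), 4 h (4 mice), 18 h (3 mice) and 24 h (3 mice). Serum mice with microarrays were killed after 1, 1.5, 3, 18 or 24 h (8 mice in all, 1 or 2 at a time). The study describes serum mice at 4 h as well, but the data hold no serum microarray of that time. The study's stages are early (1 and 1.5 h, 10 OA mice), intermediate (3 and 4 h, 11 mice) and late (18 and 24 h, 6 mice), and the question for these genes is how they varied between stages.

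Type I and III collagens form the fibres that give lung tissue its strength, and type IV collagen with laminins forms the basement membrane under the epithelium and the capillary endothelium. Integrins are receptors made of an alpha and a beta chain: some bind laminin or vitronectin on structural cells, others (Itgal, Itgam, Itgax) serve leukocytes, and Itga2b serves platelets. Matrix metalloproteinases (Mmp) cut matrix proteins and are held in check by tissue inhibitors (Timp), while ADAM proteases mainly release the outer parts of membrane proteins.

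Values are log2 levels from the authors' table, with the microarrays of a mouse averaged. The signal of a clone depends on its spot, so levels of different clones are not compared. Of the 64 clones, 24 had a mean level above 8.95, the 95th percentile of spots without a gene name, and 36.6% of all clones did. Clones are described as above or below the spots without a gene name by this level alone. A clone below it need not be dimmer than most such spots, and these spots were not shown to be all empty. All 5 lung marker genes found on the array had a clone above that level, among them Sftpd (surfactant protein D) and Cdh5 (endothelial cadherin). The 51 OA microarrays had median intensities of 6.75 to 9.36 on the log2 scale and the 9 serum microarrays 5.73 to 8.39, before normalization. The number after L in the labels' mouse codes is not explained there. Early mice carried L2 (6 mice) or L3 (4), intermediate mice L1 (3), L2 (3) or L3 (5), and late mice L1 only (6). Within a time point the median SD between mice was 0.24 for these clones and 0.22 for all clones. Between repeat microarrays of a mouse the median SD of these clones was 0.27, so the spread between mice includes microarray noise. In whole lung, fewer cells of a type and less RNA per cell cannot be told apart.

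Across the 6 time points, no matrix, integrin or protease clone passed limma's moderated F test at an adjusted p of 0.05 (Benjamini-Hochberg over 7625 clones), while 2.01% of all clones did. At an unadjusted p under 0.05 there were 12 of the 64 (18.8%), and 15.8% of all clones. The lowest adjusted p-values in limma's F test were those of Timp3 clone 2 (0.067), Lamb1-1 (0.10), Col4a1 clone 1 (0.16) and Sparcl1 clone 1 (0.16). The same 4 clones were the ones called in the contrasts between stages. From the early to the intermediate stage no member was called in either direction (1.56% of all clones were called higher and 1.01% lower), and at an unadjusted p under 0.05 there were 5 higher and 7 lower (8.52% and 8.13% of all clones).

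**Figure D1:**
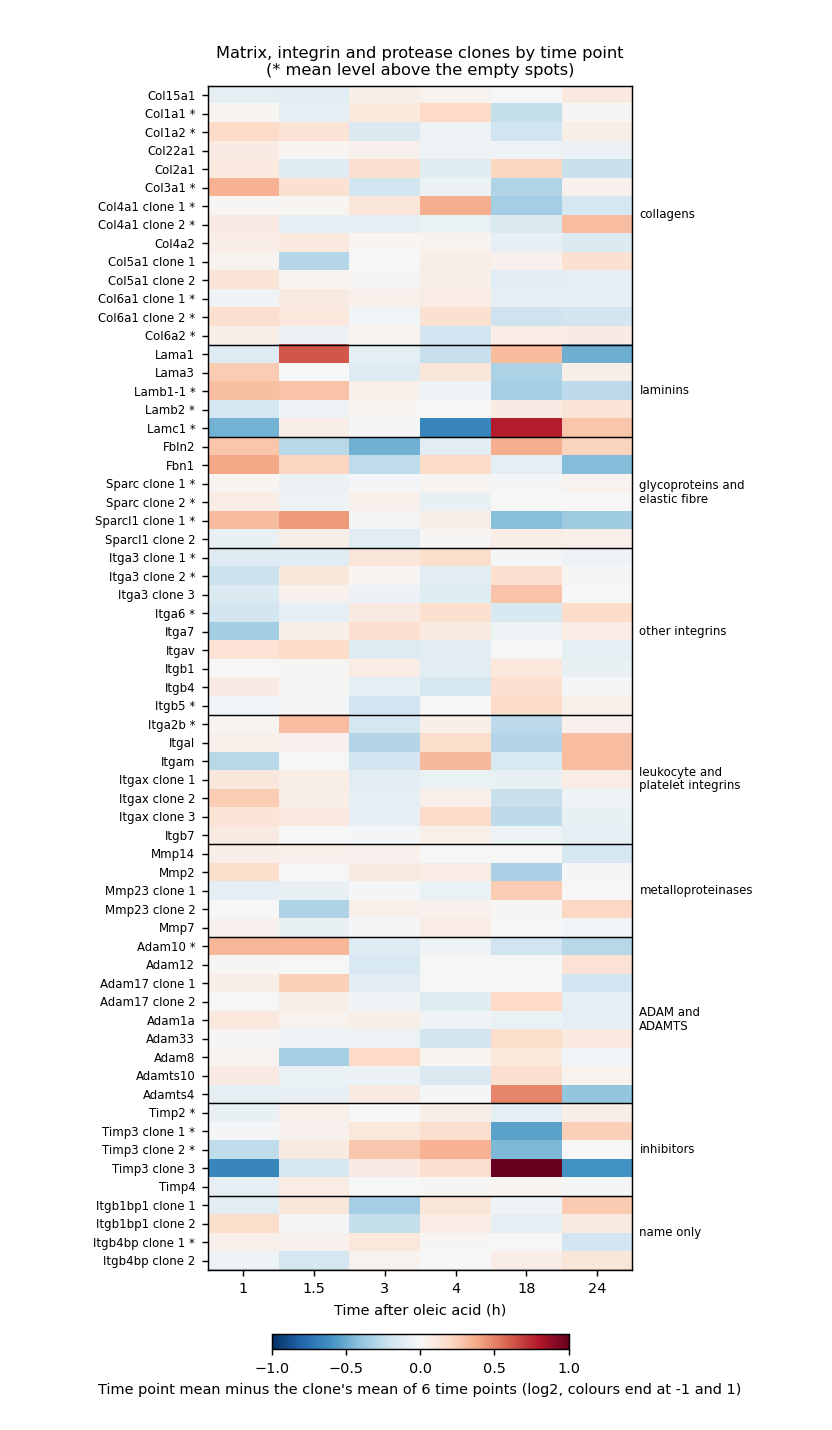
Colours show the mean of each time point minus the mean of the 6 time points (log2) for the 64 clones, in rows by role, with hours after OA in columns. Most rows are pale: the median range between the highest and lowest time point mean was 0.39, and the darkest cells belong to Timp3 clone 3, whose mice and repeat microarrays differed most.

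Timp3 clone 2 and Col4a1 clone 1 fell from the intermediate to the late stage, and no member rose (2 of 64, or 3.12%, were lower, where 1.74% of all clones were called lower and 1.44% higher). Timp3 is the inhibitor that stays bound to the matrix. Its clone 2 had levels of 11.08 to 12.00 (median 11.65) in the 11 intermediate mice, 10.72, 11.06 and 10.91 in the 3 mice at 18 h, and 10.95, 11.40 and 11.67 in the 3 mice at 24 h. All 3 mice at 18 h lay below every intermediate mouse, and 2 of the 3 mice at 24 h lay among them. The late minus intermediate difference was -0.53 ± 0.13 (SE, limma adjusted p = 0.027). In the 10 early mice the clone ranged from 10.73 to 11.84, and the early to intermediate difference of 0.39 had an adjusted p of 0.077 in limma.

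Col4a1 encodes the alpha1 chain of basement membrane collagen. Its clone 1 had levels of 11.38 to 12.13 (median 11.78) in the intermediate mice, 11.01, 11.31 and 11.30 at 18 h and 11.55, 11.39 and 11.17 at 24 h. The highest time point was 4 h, where the 4 mice had 12.13, 11.66, 11.92 and 11.92, all above the 6 late mice. The late minus intermediate difference was -0.50 ± 0.12 (SE, limma adjusted p = 0.020). At an unadjusted p under 0.05, 4 members were higher and 7 lower late than at the intermediate stage, where 7.96% of all clones were higher and 7.59% lower.

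Lamb1-1 and Sparcl1 clone 1 fell from the early to the late stage, and no member rose (2 of 64, or 3.12%, were lower, where 0.472% of all clones were called lower and 1.18% higher). Lamb1-1 is the older symbol of Lamb1, the beta1 chain of laminin. Its level was 9.52 to 10.53 (median 10.06) in the 10 early mice, 9.46 to 10.08 (median 9.75) in the intermediate mice and 9.17 to 9.64 (median 9.51) in the late mice. Of the early mice, 1 lay within the late range. The late minus early difference was -0.59 ± 0.12 (SE, limma adjusted p = 0.015). The serum mice were lower late as well: on the intensity scale used for them, the 3 serum mice at 1 and 1.5 h had 10.01 to 10.45 (median 10.23) and the 3 at 18 and 24 h had 9.47 to 9.96 (median 9.78). After the serum means were subtracted, the late minus early difference of Lamb1-1 was 0.0059 (limma adjusted p = 0.98).

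Sparcl1 (hevin) is a secreted glycoprotein related to Sparc that is made by endothelial and other cells. Sparcl1 clone 1 had levels of 10.51 to 11.68 (median 11.27) in the early mice, 10.28 to 11.21 (median 10.83) in the intermediate mice and 10.04 to 10.80 (median 10.34) in the late mice. The early and late ranges overlapped, with 3 early mice at 10.51, 10.56 and 10.75 inside the late range. The late minus early difference was -0.76 ± 0.18 (SE, limma adjusted p = 0.032).

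**Figure D2:**
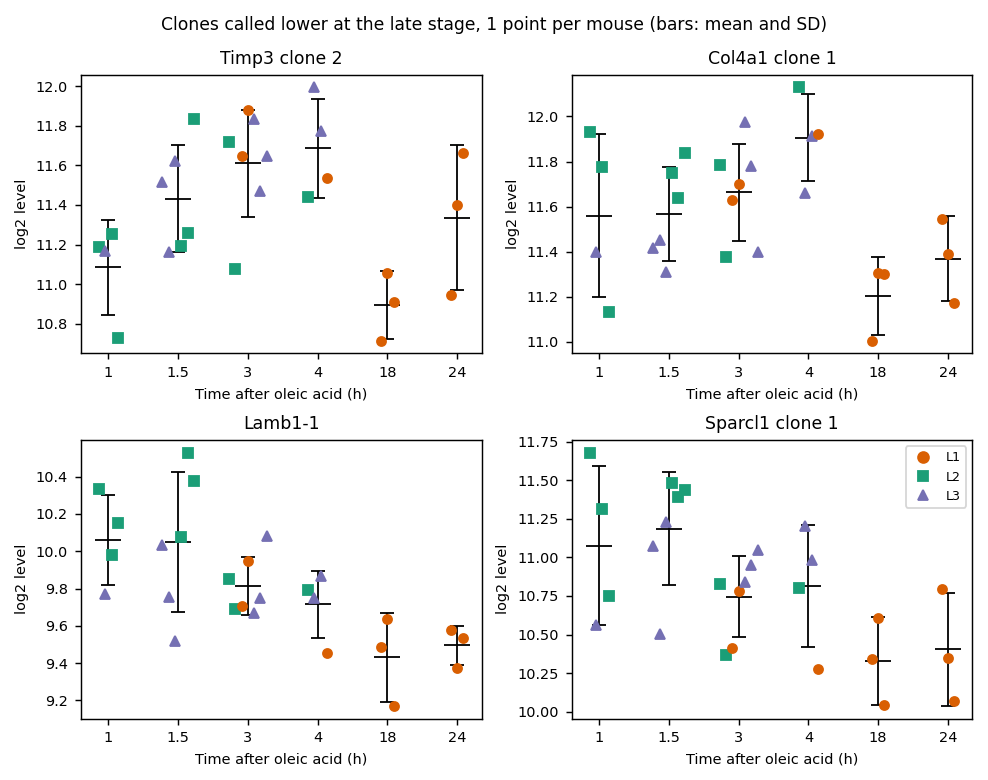
Each point is 1 OA mouse, plotted as log2 level against hours after OA, with colour and shape for the L number of its code, and black bars for the mean and SD of each time point. Timp3 clone 2 and Col4a1 clone 1 are highest at 4 h and lowest at 18 h, while Lamb1-1 and Sparcl1 clone 1 are lower late than early, in mice that all carry L1.

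The L number moved with these differences. For Sparcl1 clone 1 the early mean was 11.34 in L2 mice and 10.84 in L3 mice, and at the intermediate stage the mean was 10.49 in L1, 10.67 in L2 and 11.00 in L3 mice, against 10.37 in the late L1 mice. With the L number as a block in limma, its late minus early difference was -0.34 (unadjusted p = 0.25) and that of Lamb1-1 was -0.42 (unadjusted p = 0.038, adjusted p = 0.998). The falls of Timp3 clone 2 and Col4a1 clone 1 were as large with the block (-0.58 and -0.51) and within the 9 L1 mice alone (-0.53 and -0.51). Their adjusted p-values were then 0.25 and 0.25 with the block and 0.30 and 0.15 within L1, so none of the 4 calls passed the threshold once L number was held fixed. Few of all clones passed it then. With the block 0.0262% of them were called late minus early and 0.577% late minus intermediate, and within L1 0.643% were called late minus intermediate. After serum means were subtracted the same 2 falls were smaller, -0.26 for Timp3 clone 2 and -0.19 for Col4a1 clone 1, and were not called (limma adjusted p = 0.17 and 0.29). The data hold no serum microarray at 4 h, so the 4 h OA mice had the 3 h serum mean subtracted, which is not matched in time. No L1 mouse was early and all late mice were L1, so within no L number could late be set against early. Leaving out 1 mouse at a time kept the sign of all 4 differences, but the call was lost in 6 of 27 such fits for Timp3 clone 2, 2 for Col4a1 clone 1, 2 for Lamb1-1 and 8 for Sparcl1 clone 1.

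Markers of other cells also moved between stages. Of 11 neutrophil markers listed, 5 were on the array, and only S100a8 was lower late than early by limma (-1.54, adjusted p = 0.046). S100a9 differed by -0.85 (limma adjusted p = 0.17) and Camp by -0.16 (0.36), while Ltf differed by 0.13 (0.51) and Lcn2 by 0.72 (0.29). The summed level of the 5, in which the bright S100a8 and S100a9 weigh most, ranged from 12.56 to 15.25 in early, 12.41 to 14.34 in intermediate and 12.10 to 13.08 in late mice. B cell markers (3 of 4 genes, 8 clones, none above the spots without a gene name) had 5 clones called lower at the intermediate than at the early stage, the most so 1 of Ms4a1 (-1.04, limma adjusted p = 0.00043), which was called higher again late (0.69, adjusted p = 0.036). Of the 11 T cell clones 1, of Cd3g, was called lower from early to intermediate (-0.43, limma adjusted p = 0.025), and of the 6 lung marker clones Slc34a2 was called lower late than early (-0.44, adjusted p = 0.039). All late mice carried L1 and no early mouse did, so stage and L number cannot be told apart for S100a8 and Slc34a2. The study, with serum values subtracted, reported a gene it names Slc34a as rising to a peak at 24 h. Fibroblast markers (3 of 7 genes on the array, 5 clones) had 0 clones called between stages, though 1 was higher and 2 were lower in OA mice than in serum mice. Markers of red cells, platelets and muscle had 0 clones called between stages. The part of these markers in the differences of the matrix genes was not tested.

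The 3 called genes with an entry in the promoter table were Timp3, Col4a1 and Lamb1. Their promoters are shown because a clone of each was called lower at the late stage in OA mice, though other clones of Timp3 and Col4a1 were not called. The 300 bases run from 250 before to 50 after the start, 5′ to 3′ on the strand of the gene, from RefSeq on GRCm38.p6: chr10:86300162-86300461 (+) for Timp3, chr8:11312777-11313076 (-) for Col4a1 and chr12:31265043-31265342 (+) for Lamb1. Capitals mark the GC box GGGCGG and the CCAAT box CCAAT, each on either strand.
Timp3: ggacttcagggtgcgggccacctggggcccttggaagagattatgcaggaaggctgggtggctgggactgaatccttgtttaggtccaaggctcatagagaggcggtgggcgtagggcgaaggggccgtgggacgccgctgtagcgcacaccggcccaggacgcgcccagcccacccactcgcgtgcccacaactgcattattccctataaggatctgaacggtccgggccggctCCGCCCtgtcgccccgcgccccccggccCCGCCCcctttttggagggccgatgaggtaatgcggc
Col4a1: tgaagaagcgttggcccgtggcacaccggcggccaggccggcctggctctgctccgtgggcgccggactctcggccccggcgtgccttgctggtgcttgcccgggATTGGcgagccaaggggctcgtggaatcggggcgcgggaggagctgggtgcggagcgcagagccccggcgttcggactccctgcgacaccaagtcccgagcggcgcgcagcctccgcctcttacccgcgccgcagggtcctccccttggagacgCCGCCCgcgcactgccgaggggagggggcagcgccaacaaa
Lamb1: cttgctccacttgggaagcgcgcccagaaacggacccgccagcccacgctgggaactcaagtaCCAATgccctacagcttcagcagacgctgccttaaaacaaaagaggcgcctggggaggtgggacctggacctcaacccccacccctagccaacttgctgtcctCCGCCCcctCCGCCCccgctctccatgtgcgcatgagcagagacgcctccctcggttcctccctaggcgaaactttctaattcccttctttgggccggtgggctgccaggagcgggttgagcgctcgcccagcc
All 3 held a GC box (2, 1 and 2 sites), which 35.7% of the 32851 promoters in the table hold, and no site overlapped another. Col4a1 and Lamb1 held a CCAAT box (1 site each), found in 37.4% of promoters. None held TATAAA (13.6% of promoters) or the AP-1 motif TGANTCA (7.81%). These are matches of letters only. G and C made up 67%, 74% and 63.7% of the bases.

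Among the collagens, 1 of 14 clones was called in any stage contrast, Col4a1 clone 1. The late minus early differences of the 14 ran from -0.38 (Col3a1, limma adjusted p = 0.21) to 0.22 (Col5a1 clone 1). All 14 had a 95% interval inside ±1, as did 95.6% of all clones, and 9 (64.3%) had it inside ±0.5, against 72.8% of all clones. Col1a2, the brightest collagen clone and the alpha2 chain of type I collagen, had time point means of 12.44, 12.38, 12.10, 12.20, 12.04 and 12.30 from 1 h to 24 h, and an adjusted p of 0.61 in limma's F test. Col1a2 and Col3a1, the chain of type III collagen, varied together from mouse to mouse: their deviations from the time point means had Pearson r = 0.83 and Spearman rho = 0.82 over 27 mice. The permutation p was 1e-05 for each, the smallest that 100000 permutations can give, and 0.00023 after adjustment over 23 clone pairs. Leaving out the 2 mice farthest from the median of Col1a2 gave r = 0.79, and r was 0.90, 0.78 and 0.72 within L1, L2 and L3. Col1a1 and Col1a2, chains of the same molecule, had r = 0.39 and rho = 0.49 (permutation adjusted p = 0.12 and 0.054, n = 27), with r = 0.35 without the 2 farthest mice and 0.87, 0.50 and 0.04 within L1, L2 and L3. The other chain pairs tested varied together less. Pearson r was 0.28 for Col1a1 and Col3a1, 0.23 for Col6a1 clone 1 and Col6a2, and -0.20 for Col4a1 clone 1 and Col4a2 (permutation adjusted p = 0.28, 0.35 and 0.41, n = 27).

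Among the laminins, Lamb1-1 was the 1 of 5 clones called. Lamb2, the beta2 chain, differed in the other direction late minus early by 0.22 (limma adjusted p = 0.16). Lamc1, the gamma1 chain shared by most laminins, had the widest laminin range, with time point means of 8.47 at 4 h and 9.90 at 18 h, but its SD between repeat microarrays of a mouse was 1.31 and its adjusted p in limma's F test was 0.55. Lama1 (0.43) and Lama3 (0.29) did not pass that test either.

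Of the glycoproteins and elastic fibre genes, 1 of 6 clones was called, Sparcl1 clone 1. Sparc (osteonectin, a collagen-binding protein) had 2 very bright clones whose time point means spanned 0.10 and 0.15. The late minus early interval of clone 1 was -0.12 to 0.17. Its intensity reached or passed 21815, the maximum that most microarrays share, on 6 of 60 microarrays, and that of clone 2 on none. The median intensities over the microarrays were 19358.5 (clone 1) and 17250.5 (clone 2), close to that maximum. A rise of either clone could thus be cut short, and the small spans need not mean stable levels. Fbn1 (fibrillin-1) differed by -0.56 late minus early (limma adjusted p = 0.20), and Fbln2 (fibulin-2) by 0.30 (adjusted p = 0.47). Fibronectin and elastin clones were not among the named clones analysed here.

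No integrin clone was called between stages. The 9 clones for integrins of structural cells (Itga3, Itga6, Itga7, Itgav, Itgb1, Itgb4, Itgb5) had late minus early differences of -0.21 to 0.19, and all 9 intervals lay inside ±1. Itga3, the laminin-binding alpha3 chain, had time point means of 10.30 to 10.61 in clone 1. Of the 7 leukocyte and platelet integrin clones only Itga2b lay above the spots without a gene name. Itgal, Itgam, Itgax and Itgb7 had mean levels that some of those spots also reach. Itga2b had means of 10.25, 10.53, 10.05, 10.29, 9.97 and 10.27, with an adjusted p of 0.33 in limma's F test. Itgax clones 2 and 3 differed by -0.29 and -0.28 late minus early (limma adjusted p = 0.10 and 0.096), and clone 1 by -0.09 (adjusted p = 0.64). Itgb4bp clone 1, the brightest of the clones caught by name only, had time point means of 9.85, 9.84, 9.90, 9.81, 9.79 and 9.61 and was not called late minus early (-0.15, limma adjusted p = 0.24).

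No metalloproteinase or ADAM clone was called between stages. All 5 metalloproteinase clones (Mmp2, Mmp7, Mmp14 and 2 of Mmp23) lay below the level of the spots without a gene name. Mmp2 (gelatinase A) was the brightest, with late minus early -0.26 (limma adjusted p = 0.24). Of 9 ADAM and ADAMTS clones, only Adam10, a sheddase of Notch and cadherins, was above that level. Its time point means were 9.48, 9.48, 9.02, 9.10, 8.95 and 8.87, and the late minus early difference of -0.57 ± 0.17 (SE) had an adjusted p of 0.083 in limma. Adam17, the TNF-releasing protease, differed by -0.25 (clone 1, adjusted p = 0.20) and 0.02 (clone 2, adjusted p = 0.95). Among the inhibitors, Timp2 and Timp4 had time point means that each spanned 0.16.

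At an unadjusted p under 0.05, 15 of 64 clones (14 genes) were lower late than early and 3 were higher, where 10.3% of all clones were lower and 10.3% higher. The 15 held 5 collagen, 2 laminin, 2 glycoprotein, 2 Itgax, 2 ADAM and 1 metalloproteinase clones and 1 caught by name only, and they include both called clones. With L number as a block, 12 of the 15 were still below 0 and 1 had an unadjusted p under 0.05. These 15 were picked as lower in the same mice, so their sign under the block is no separate support. Of the 64, the block gave 4 (6.25%) lower and 0 higher at that p. Among all clones 2.1% were then lower and 2.2% higher. Without the block, the median late minus early difference over all 64 clones was -0.0021, that over all clones was -0.0017, and 32 of 64 lay below 0. Of the 64, 40 (62.5%) had a late minus early 95% interval inside ±0.5, and 72.8% of all clones did.

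**Figure D3:**
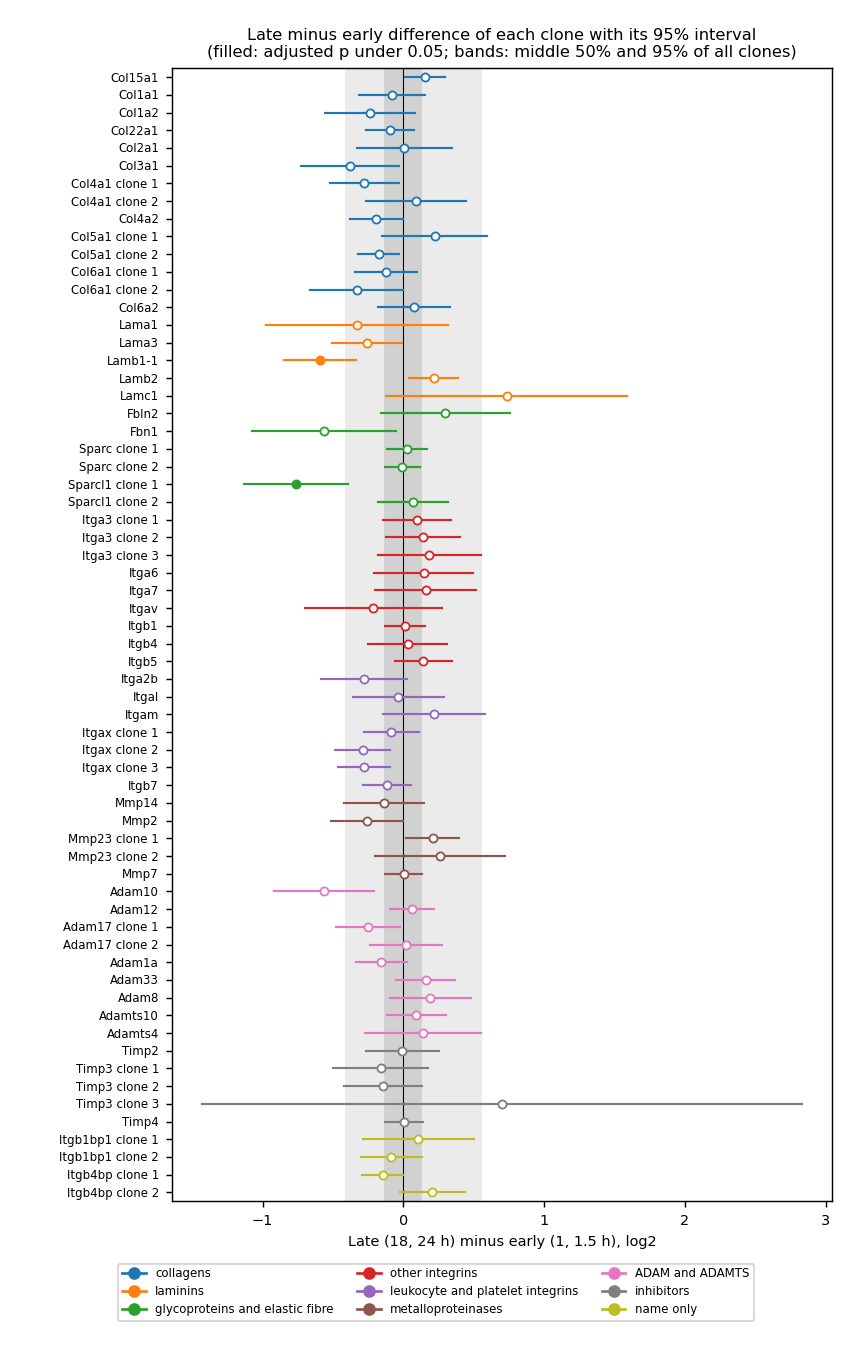
Points are late minus early differences in log2 with 95% intervals (bars) for the 64 clones, coloured by role, and grey bands hold the middle 50% and 95% of all clones. Only Lamb1-1 (-0.59) and Sparcl1 clone 1 (-0.76) are filled as called, and the interval of Timp3 clone 3 runs far past the others.

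Clones of the same gene did not always move alike. Timp3 clone 1 had 10.79, 11.22 and 10.88 at 18 h and 11.83, 11.55 and 11.85 at 24 h, where the intermediate mice had 11.12 to 12.27, so that 2 of the 3 mice at 18 h lay below every intermediate mouse and the other 4 late mice among them. It differed by -0.29 ± 0.16 (SE) late minus intermediate (limma adjusted p = 0.42). Timp3 clone 3 ranged from 5.36 to 11.77 over the 27 mice, with an SD of 2.91 between repeat microarrays of a mouse, where the other clones of the gene had 0.27 and 0.30. Col4a1 clone 2 differed by 0.16 late minus intermediate (limma adjusted p = 0.75), with the sign opposite to clone 1. Sparcl1 clone 2, below the spots without a gene name at a mean of 7.46, differed by 0.07 late minus early (adjusted p = 0.80). Over 18 pairs of clones of the same gene, the correlation of deviations across the 27 mice had a median r of 0.31 (-0.24 to 0.75), and 0.41 in the 5 pairs with both clones above that level. Over all genes the medians were 0.16 (2223 pairs) and 0.30 (639 pairs). The closest pair was Itga3 clones 2 and 3, with r = 0.75 and rho = 0.74 over 27 mice (permutation adjusted p = 0.00023 and 0.00035), r = 0.78 without the 2 farthest mice, and 0.75, 0.50 and 0.78 within L1, L2 and L3.

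**Figure D4:**
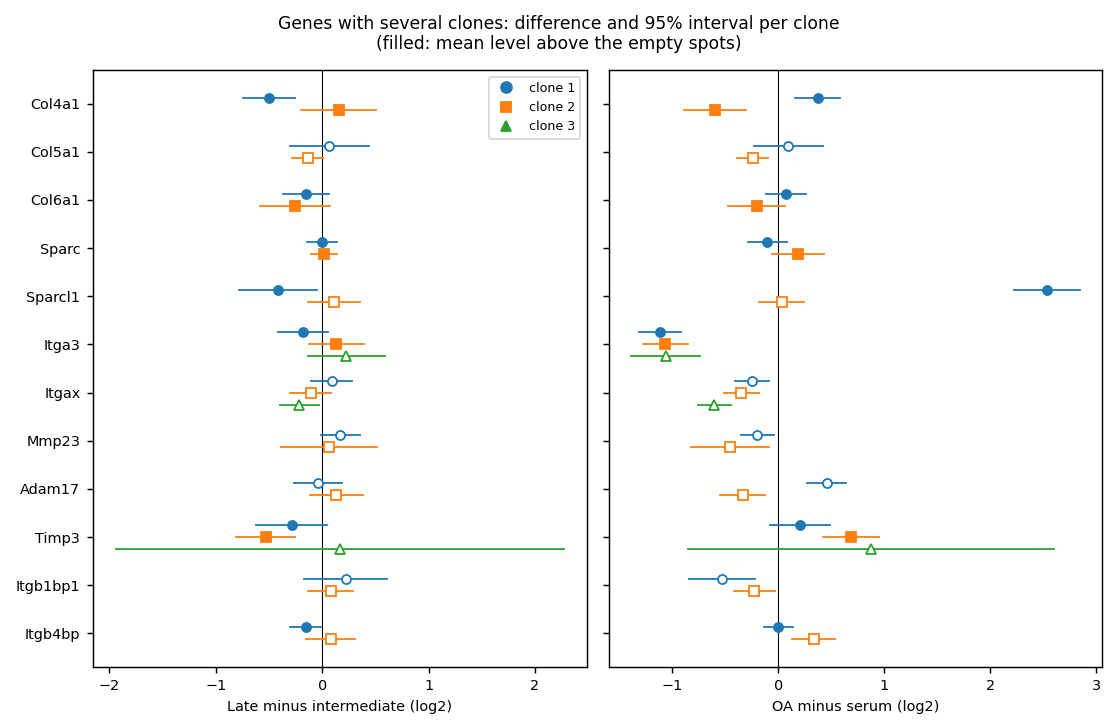
For the 12 genes with several clones, symbols are the difference of each clone in log2 with its 95% interval (bars), late minus intermediate on the left and OA minus serum on the right, filled where the mean level is above the spots without a gene name. The 3 Itga3 clones lie together at about -1.1 on the right, while those of Col4a1 and Sparcl1 lie apart.

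Among other genes that build, modify or anchor the matrix, Plat and Ctgf fell from the intermediate to the late stage in mice that were all L1 when late. Of 43 clones for 34 matrix partners and modifiers (cross-linking enzymes, proteoglycans, matricellular proteins, cathepsins), 2 passed limma's F test. Plat, the tissue plasminogen activator, rose by 0.83 from early to intermediate (limma adjusted p = 0.00031) and fell by 0.89 from intermediate to late (adjusted p = 0.00034), at a mean level of 8.73, below the spots without a gene name. Ctgf, a matricellular growth factor, fell by 0.91 from intermediate to late (limma adjusted p = 0.00085) and by 0.64 from early to late (adjusted p = 0.039). Mfap2, a microfibril protein, rose by 0.39 from intermediate to late (limma adjusted p = 0.043). With the L number as a block in limma, a setting chosen for these 3 genes after seeing the data, Plat kept both calls (0.70, adjusted p = 0.0022, and -1.27, adjusted p = 0.00042). Under that block Ctgf differed by -0.68 late minus intermediate (limma adjusted p = 0.23) and -0.32 late minus early (adjusted p = 0.998), and Mfap2 by 0.23 late minus intermediate (adjusted p = 0.77), so these 3 calls were lost. Of 19 clones for 13 adhesion complex genes (Vcl, Zyx, Tln1, Ptk2 and others), 0 were called in any stage contrast.

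Against serum, the members differed about as often as other clones. OA and serum mice were compared at the 5 shared time points on intensities of all 60 microarrays, normalized together. Of 64 clones, 39 (60.9%) were called, where 61.6% of all clones were. Of the 39, 12 were higher in OA mice (18.8% of the members, 34.3% of all clones) and 27 lower (42.2% of the members, 27.3% of all clones). The serum microarrays were dimmer (median 7.62 against 8.32 on the log2 scale), their files have another column order, and the serum groups hold 1 or 2 mice, so the injection cannot be told apart from the set of microarrays. Scaling mattered for the balance: the share of higher among called members was 30.8% as normalized, 21.7% with each microarray centred on its median and 46.2% with the fitted signal, and over all clones it was 55.7%, 43.6% and 65.8%. The median difference of the members was -0.14, -0.28 and -0.17 in these 3 settings, and that of all clones was 0.05, -0.06 and 0.07.

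Of the 64 clones, 8 (12.5%) had OA and serum mice that did not overlap, against 12.7% of all clones. Sparcl1 clone 1 differed most: the 27 OA mice had 9.93 to 11.60 (median 10.70) and the 8 serum mice 7.76 to 8.40 (median 8.11). Its difference was 2.54 ± 0.15 (SE, limma adjusted p = 4.5e-14) and lay between 2.04 and 2.98 at each of the 5 time points. Clone 2 of the gene, which was dim, differed by 0.03 (adjusted p = 0.81). Adam10 had 8.32 to 9.71 (median 9.02) in OA mice and 7.23 to 8.06 (median 7.82) in serum mice, a difference of 1.31 ± 0.14 (SE, limma adjusted p = 5.0e-09).

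Itga3 was lower in OA mice in all 3 clones, with log2 differences of -1.11, -1.07 and -1.06. In clone 1 the OA mice had 9.80 to 10.86 (median 10.33) and the serum mice 11.23 to 11.62 (median 11.41), without overlap (-1.11 ± 0.10 SE, limma adjusted p = 9.5e-11). Itgb5, the beta5 chain that pairs with alphav to bind vitronectin, had 8.48 to 9.24 in OA mice and 9.25 to 10.25 in serum mice, a gap far smaller than either range (-0.97 ± 0.08 SE, limma adjusted p = 2.4e-11). With the fitted signal the difference of Itgb5 was of the same size (-0.97) with an adjusted p of 0.078. Of the 9 integrin clones of structural cells 5 were called, all lower, but 3 of these are clones of 1 gene (Itga3, with Itgb1 and Itgb5). Of the 7 leukocyte and platelet integrin clones 5 were called, all lower (Itgal, Itgam and 3 of Itgax) and all at levels below the spots without a gene name. These counts stand beside 27.3% lower and 34.3% higher among all clones.

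Itgal, the alpha chain of the leukocyte integrin LFA-1, had 4.25 to 5.59 (median 4.81) in OA mice and 5.25 to 6.46 (median 5.99) in serum mice (-1.13 ± 0.11 SE, limma adjusted p = 9.2e-10), and the difference was -3.11 with the fitted signal (adjusted p = 0.0023). Itgam, the alphaM chain of neutrophils and macrophages, had 4.48 to 6.23 (median 5.53) in OA mice and 5.91 to 6.52 (median 6.20) in serum mice (-0.68 ± 0.12 SE, limma adjusted p = 3.2e-05). Mmp14, a membrane-bound metalloproteinase, had 7.96 to 8.84 (median 8.52) in OA mice and 8.79 to 9.64 (median 9.17) in serum mice (-0.67 ± 0.12 SE, limma adjusted p = 3.5e-05). In all 3 clones the OA and serum ranges overlapped, and with the fitted signal Itgam and Mmp14 were not called (limma adjusted p = 0.25 and 0.31). With the fitted signal Itgax clones 1 and 2 had the opposite sign at 0.05 and 0.01.

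Of the 9 ADAM and ADAMTS clones, 5 were called higher in OA mice (Adam10, Adam1a, Adam12, Adam33 and Adam17 clone 1) and 2 lower (Adamts10 and Adam17 clone 2), against 34.3% and 27.3% of all clones, and all but Adam10 lay below the spots without a gene name. Of the 5, only Adam10 was also called with the fitted signal, which gave positive differences for the other 4. Of the metalloproteinases 4 clones were lower (Mmp14, Mmp2 and both of Mmp23) and Mmp7 (matrilysin) was higher, and with the fitted signal Mmp7 and Mmp23 clone 1 changed sign. The inhibitors were split, with Timp3 clone 2 (0.69 ± 0.13 SE) and Timp4 higher and Timp2 lower (-0.64 ± 0.10 SE). The difference of Timp3 clone 2 was 0.30 with median centring and was then not called (limma adjusted p = 0.055), and 0.60 with the fitted signal (adjusted p = 0.039). With the fitted signal Timp4 (0.58) and Timp2 (-0.58) were not called (limma adjusted p = 0.064 and 0.065). Col4a1 clone 1 was 0.37 higher and clone 2 0.60 lower on the log2 scale, both called, and clone 1 was -0.12 with median centring. With the fitted signal Col4a1 clone 1 was 1.01 (limma adjusted p = 0.00081) and clone 2 was -0.24 (adjusted p = 0.42). Of the called clones, 9 kept their call and sign under all 3 settings: Sparcl1 clone 1 and Adam10 were higher, and Col1a1, Lamb1-1, Itgal, Itgax clone 3 and the 3 Itga3 clones were lower. The matching share of all clones was not computed. The fitted signal alone called 20.3% of the members and 24.4% of all clones.

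**Figure D5:**
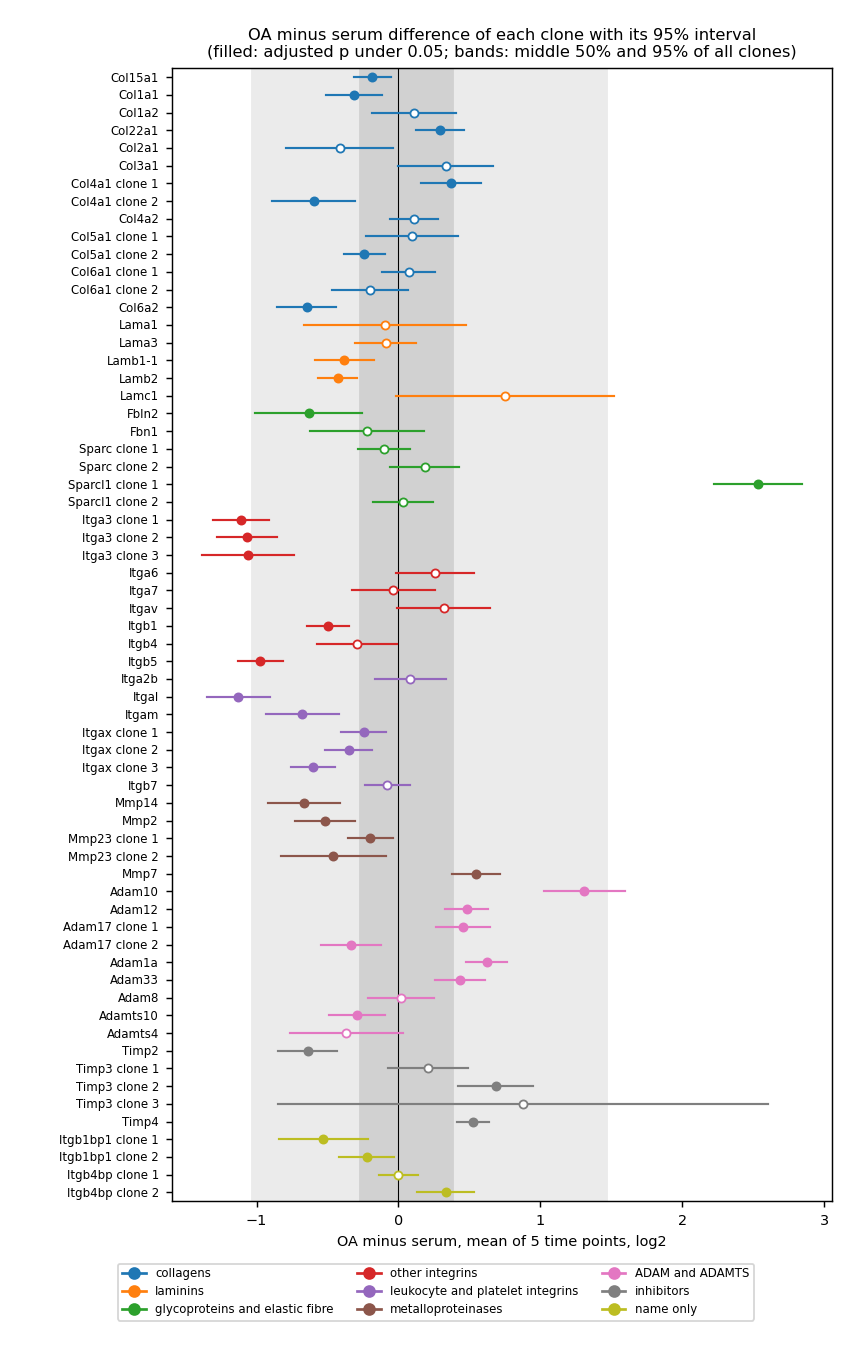
Points are OA minus serum differences in log2, the mean of 5 time points, with 95% intervals (bars) for the 64 clones, coloured by role, filled where called, and grey bands hold the middle 50% and 95% of all clones. Sparcl1 clone 1 (2.54) lies outside the wider band, as do Itgal and the 3 Itga3 clones on the lower side.

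Whether the difference from serum changed between stages was tested as an interaction. No member was called (0.0525% of all clones were), and 9 of 64 had an unadjusted p under 0.05 (14.1%, against 9.26% of all clones). This count depended on 1 serum mouse. Without mouse 2 of the serum mice at 3 h, 8 members were called and 6.06% of all clones were, and the 8 were both Sparc clones, Timp4, Mmp7, Col22a1, Col2a1, Itgb7 and Itgb1. Mouse 1, which then stands alone at 3 h, had Sparc levels of 13.15 (clone 1) and 12.29 (clone 2), against 14.34 to 14.38 and 13.79 to 14.12 in the other 7 serum mice. Its Col2a1 level was 10.48, against 8.03 to 8.49 in the others. The microarray of this mouse had the lowest median intensity of all 60 before normalization (5.73 on the log2 scale, the next lowest being 6.75), and the part of this in the result was not tested.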

How the data were processed

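Whole lung RNA was hybridised to 60 nylon microarrays (51 of OA mice, 9 of serum mice) with 9984 spots. The authors quantified the images with Bzscan2, corrected neighbourhood effects and local background, and quantile-normalized. The deposited series table holds log2 values of the OA microarrays in quantile-normalized form, and the deposited file of each microarray holds spot intensity on a linear scale. The 5 serum columns of that table follow another quantification and were not used. The genome build behind the clones is not given in the sources used here.

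Of the spots, 2159 without a gene name and 200 controls were left out, and 7625 clones were tested. The microarrays of a mouse were averaged (27 OA mice, 23 with 2 microarrays). 1 OA microarray at 1.5 h was set aside because its mouse code also belongs to a 4 h mouse, and 1 microarray of mouse P7L3, whose labels give both 1.5 h and 3 h, was kept at 3 h. Mice were fitted with limma 3.58.1 in R 4.3.3 (6 time point means, F test, stage contrasts as means of the 2 time points), with Benjamini-Hochberg adjustment and a threshold of 0.05. For OA minus serum, intensities (floor 1, log2, quantile over 60 microarrays) were fitted by treatment and time. The 9 serum microarrays were assigned to 8 mice with the study's design. RNA came from 1 lung of each mouse, per the study's methods, and repeat microarrays of a mouse are technical, so the mouse is the unit of the p-values. The spread between mice includes that between microarrays. For the members the median SD was 0.27 between repeat microarrays of a mouse and 0.24 between mice of a time point. In the OA minus serum fit the 27 OA and 8 serum mice share a common spread, so those p-values rest mostly on the spread of the OA mice. The number of microarrays limits the precision. Scripts were tested on simulated data.

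The members and gene lists were chosen with earlier results of these data known. Described with full values were members called by the F test (none), up to 3 called per stage contrast and direction, the 10 called with the largest OA minus serum difference, and the brightest clone of each role. Promoters came from RefSeq (GRCm38.p6), and all 49 symbols matched, 2 through an older symbol. Alternatives covered the signal, the normalization, dim clones, L number, single microarrays and each mouse.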

Additional observations from a re-analysis of the deposited data

Results flagged for a closer look

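In each of the 18 clones described with full values, the OA mice of each time point with 4 to 7 mice were checked for a mouse far from the others, by setting its gap to the nearest mouse against the range of the group. Of 72 groups, 5 had such a mouse, and chance alone gives about 1 in 20. At 1 h, mouse P4L2 had 10.73 for Timp3 clone 2 where the others had 11.17 to 11.26 (gap 0.838 of the range). At 1 h, mouse P2L3 had 8.81 for Itgb5 where the others had 9.07 to 9.11 (0.881). At 4 h, mouse P11L2 had 8.75 for Mmp14 where the others had 8.48 to 8.50 (0.943). At 1.5 h, mouse P1L3 had 13.75 for Sparc clone 1 where the others had 14.14 to 14.30 (0.706). At 4 h, mouse P13L3 had 11.24 for Timp3 clone 1 where the others had 11.78 to 11.83 (0.915).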

How the results depend on the processing

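Over the 6 time points no member was called with the image intensities, without dim clones, with the L number as a block or without the P7L3 microarray. These settings called 2.03%, 3.48%, 0.931% and 1.94% of all clones tested. There were 2 with each microarray as a sample and the mouse as a random block (5.74% of all clones) and 1 with the unresolved microarray added (2.57%). After subtracting serum means there were 42, where 55.9% of all clones were called. That setting carries the error of 1 or 2 serum mice into every OA mouse of a time point. In it, OA mice at 4 h had the 3 h serum mean subtracted, as the data hold no serum microarray at 4 h. For intermediate minus early, 2 members were called with single microarrays (4.93% of all clones) and 20 after serum subtraction (36.1% of all clones). For late minus intermediate, 20 were called after serum subtraction (26.8%), 0 with the L number as a block (0.577%) and 0 within L1 (0.643%). For late minus early, 14 were called after serum subtraction (23.7%) and 0 with the block (0.0262%). After serum subtraction Lamb1-1 had a late minus early difference of 0.0059 in place of -0.59. The serum mice that were subtracted were themselves lower late (median 9.78) than early (median 10.23), and why they were lower was not tested.

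Leaving out 1 OA mouse gave 0 to 2 members over the 6 time points, 0 to 1 for intermediate minus early, 0 to 2 for late minus intermediate and 0 to 4 for late minus early. The matching counts over all clones are not given here, so these member counts are not set against the whole array. The most for late minus early, 4, came without P4L3 (1.5 h), and 0 without P7L1 (24 h) or P12L1 (18 h). For late minus intermediate, 0 were called without P10L1 (18 h), and 1 without P13L3, P12L3, P8L1, P7L1, P6L1 or P12L1. For late minus early, 1 was called without P8L2, P8L1, P2L2, P10L1, P3L2 or P6L2. For intermediate minus early, 1 was called without P8L2 or P16L2, and over the time points 2 without P4L3 and 1 without P16L2 or P5L3.

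Of the OA minus serum comparison, 13 members in place of 39 were called with the fitted signal (20.3%, against 24.4% of all clones), and 13 of 24 without dim clones (54.2%, against 58.1% of the 2758 clones then tested). With median centring there were 46 (71.9%, against 65.3%). Leaving out 1 mouse gave 37 to 42. The matching counts over all clones are not given here, so this range is not set against the whole array. The stage difference of OA minus serum had 0 to 8 members called, 8 without serum mouse 2 at 3 h. No paired analysis was possible because each mouse was killed at 1 time point. Signal limits these results: only 24 of 64 clones had a mean above the 95th percentile of spots without a gene name.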
